A study of Arabidopsis thaliana with 16 samples.

Results

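In 2-week Arabidopsis thaliana seedlings, 4 libraries were compared, 2 labelled wild type (WT) and 2 labelled tcx5/6;ddm1, out of 16 libraries in the study. They were all the libraries of these 2 groups. The genotype of the second group is written tcx5-/-tcx6-/-ddm1-/-, so TCX5, TCX6 and DDM1 are all named as mutated and the group is also called the triple mutant, after its label, and the WT group carries none of these alleles. The same table held 2 tcx5-/-tcx6-/- libraries (tcx5/6) and 2 ddm1-/- libraries (ddm1), which share the DDM1 or the TCX5 and TCX6 alleles of WT and serve here to place each value. All plants were grown on MS plates at 22 °C under 16 h of light and 8 h of darkness, and mRNA libraries were made from total RNA of the seedlings. The accession, the individual alleles, the hour of collection and whether replicates were grown separately are not given in the labels. The p-values thus cover the spread between libraries and no more.

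TCX5 and TCX6 are CXC-domain DNA-binding proteins of the DREAM complex, a repressor of cell cycle genes that also limits transcription of DNA methylation genes. DDM1 is a chromatin remodeller that opens heterochromatin to DNA methyltransferases, and its loss lowers DNA methylation. Plants answer microbes through receptors at the cell surface and in the cytoplasm, which act through salicylic acid against biotrophs and through jasmonate and ethylene against necrotrophs and chewing insects. Active defence is commonly accompanied by lower expression of chloroplast genes.

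Values are the authors' size-adjusted read counts per gene, called signal below, which are not divided by gene length. Levels are therefore compared between libraries only within a gene, or as a sum over the same genes. Differences are log2(signal + 1) in tcx5/6;ddm1 minus that in WT from limma-trend, given with their standard error (SE), and a gene was called at a Benjamini-Hochberg adjusted p under 0.05. Total signal was 33.31 and 34.03 M in WT and 31.87 and 31.60 M in tcx5/6;ddm1, and replicates correlated at a Pearson r of 0.9951 and 0.9845 across genes. These totals were adjusted by the authors, so the depth sequenced is unknown. In WT and tcx5/6 no gene was listed at 0 in 1 replicate alone, whereas 1825 genes in ddm1 and 1733 in tcx5/6;ddm1 were. In WT the same pair of values, 0.05022 and 2.795, was listed for the genes PDF1.2b, GSTU3 and OFP9. In tcx5/6 the pair 0.05207 and 1.415 was listed for ADPG1 and GSTU3. By contrast, BGLU7 read 4.623 and 0 in tcx5/6;ddm1, and ADPG1 read 4.4 and 0 in ddm1. How these repeated low values arose was not tested, and the labels state no difference in preparation or processing. Whatever lies behind the zeros in 1 replicate alone cannot be told apart from genotype between WT and tcx5/6;ddm1. The ddm1 and tcx5/6;ddm1 groups were alike in this respect. How reads shared between close paralogs or with antisense genes were counted is not given. Values of near-identical copies such as the PDF1.2, RBCS, GSTF, BIP, KIN, SAE1 and MIR854 genes are therefore uncertain for each copy.

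The targeted genes came out unevenly. TCX5 (chromosome 4, 14293513 to 14297066 in TAIR10.1) read 486 and 496.7 in the WT libraries and 250.2 and 173.6 in the tcx5/6;ddm1 libraries, a difference of -1.23 ± 0.18 (adjusted p = 0.00051). TCX6 (chromosome 2, 8683979 to 8687283) read 162.6 and 152.1 in WT and 731.1 and 833.8 in the triple mutant, 2.30 ± 0.18 (adjusted p = 1.5e-05), so this transcript rose in libraries whose label has the gene mutated. DDM1 (chromosome 5, 26648897 to 26653191) read 709.3 and 647.9 in WT and 568.8 and 654.4 in the triple mutant, and did not pass (-0.15, adjusted p = 0.34). It read 1925 and 2061 in tcx5/6 and 118.8 and 145.2 in ddm1. The groups are therefore called by their labels, and every direction below rests on those labels. Among genes known to be silenced by DNA methylation, FWA, a homeobox gene, was listed at 0 in both WT libraries and at 19.17 and 369 in the triple mutant. SDC, an F-box gene, read 4.649 and 3.33 in WT and 133.9 and 241.8 in the triple mutant (5.19 ± 0.38), and was still lower than the 4262 and 6166 of ddm1 (-4.82, adjusted p = 6e-05). The FWA replicates lay far apart, and no fold is given against a group listed at 0.

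Markers of other organs were read as a check of the labelled tissue. Root markers were all detected, and their summed signal was 8012 and 7550 in WT and 4095 and 4461 in tcx5/6;ddm1. Such a sum is weighted towards the members with the highest signal. Of these 10 root markers 5 were called lower and none higher, with a median difference of -0.59. Over all genes tested 26.4% were called lower and 29.5% higher. Summed shoot meristem markers read 1769 and 1796 in WT and 691.7 and 490.6 in tcx5/6;ddm1. Of 9 tested 4 were called lower, among them the transcription factor gene ANT (-2.04 ± 0.15) and the homeobox gene KNAT1 (-2.34 ± 0.26). WUS was listed at 0 in all 8 libraries, which does not show whether it was silent or not counted. Summed seed storage markers were low, 30.48 and 29.67 in WT and 28.63 and 44.63 in tcx5/6;ddm1, but 3193 in ddm1 replicate 1 against 57.34 in ddm1 replicate 2. That library stands apart, so some counts of list members against ddm1 are also given without it. Of 8 floral organ markers 2 were called higher and 1 lower, no more than the shares over all genes. AP3, a petal and stamen identity gene, rose from 5.729 and 2.006 to 218.5 and 208.4 and SEP3, its partner in the floral quartets, from 184.5 and 147.1 to 759.9 and 680.6, while AG, AP1, SEP1 and SEP2 were at or under 13.32 in every library of both groups. LFY, a floral meristem identity gene, was called lower, at 3.515 and 3.21 in WT and listed at 0 in both tcx5/6;ddm1 libraries, and its call was lost without WT replicate 1 (adjusted p = 0.051). PI, the partner of AP3, read 10.93 and 23.54 in WT and 39.16 and 39.19 in tcx5/6;ddm1 and did not pass (adjusted p = 0.066). In bulk seedlings, fewer cells of a type and less RNA per cell cannot be told apart.

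Of 25016 genes tested, 7372 (29.5%) were called higher and 6597 (26.4%) lower in tcx5/6;ddm1 than in WT, so 55.8% were called, and the median difference over all genes tested was 0.02. At least 2-fold changes were called in 3803 genes (15.2%) upward and 2847 (11.4%) downward. Against that wide background the lists of defence, stress and metabolism genes were read by the size and direction of change of their members. Calls ran almost wholly upward among WRKY factors and pattern receptors and almost wholly downward among light harvesting, carotenoid and aliphatic glucosinolate genes.

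**Figure D1:**
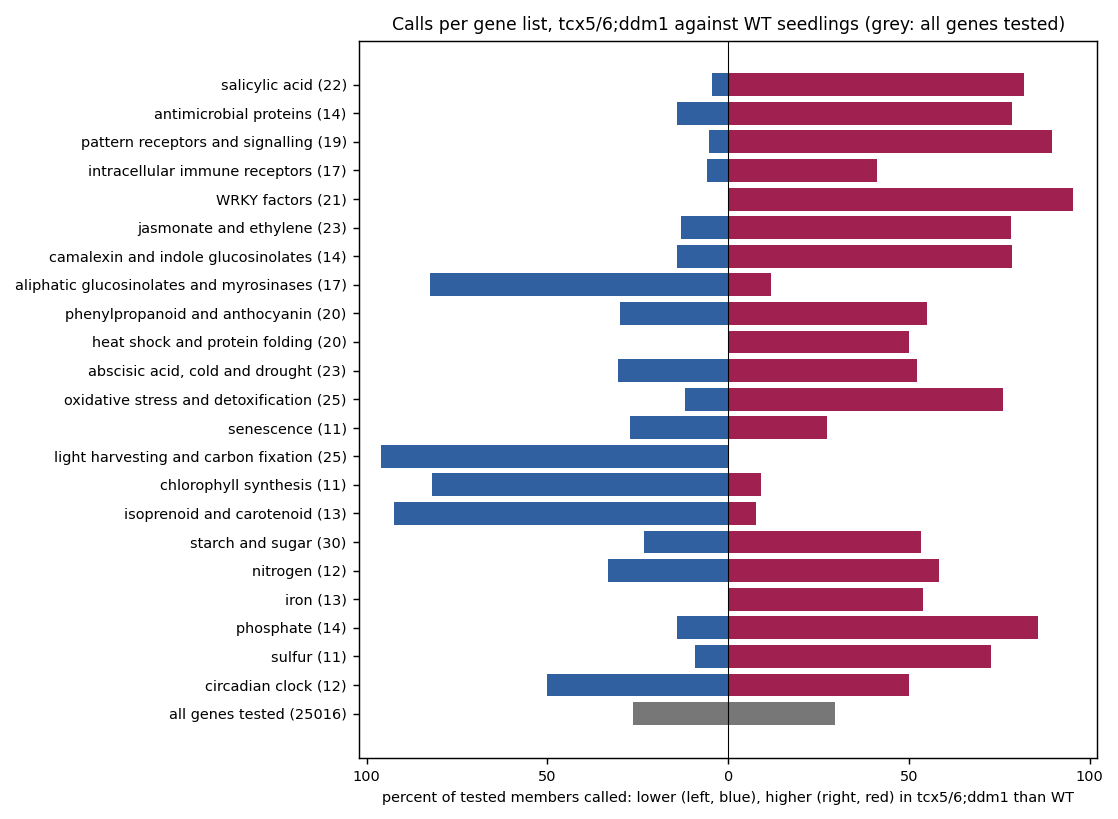
Percentage of tested members of each list (number in parentheses) that were called higher (red, right) or lower (blue, left) in the tcx5/6;ddm1 than in the WT libraries, with all 25016 genes in grey. WRKY factors had 20 of 21 members higher, and light harvesting and carbon fixation genes had 24 of 25 lower, against 29.5% higher and 26.4% lower over all genes.

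Salicylic acid signalling genes were mostly higher in tcx5/6;ddm1. Of 22 genes, 18 were called higher, 1 lower and 3 were not called, with a median difference of 1.15. SARD1 and CBP60G, calmodulin-binding family factors that activate salicylic acid synthesis genes, changed most among the factors. SARD1 read 71.12 and 57.37 in WT and 941 and 1535 in the triple mutant (4.21 ± 0.32, adjusted p = 1.3e-05), and both mutant libraries lay far above both WT libraries. CBP60G read 154.4 and 139.9 in WT and 1190 and 1781 in the triple mutant (3.30 ± 0.23). Among the synthesis enzymes the change was uneven. ICS1, the isochorismate synthase that starts the pathway, differed by 0.56, whereas EDS5, its chloroplast exporter, rose by 2.01 and PBS3, which conjugates isochorismate to glutamate, by 1.71. EPS1, the acyltransferase gene of the last step, was the member called lower (-0.73). The ICS1 call was lost without WT replicate 2 (adjusted p = 0.1) or tcx5/6;ddm1 replicate 2 (0.077), and that of EPS1 without WT replicate 1 (0.13), WT replicate 2 (0.14) or tcx5/6;ddm1 replicate 2 (0.22). FMO1, which makes the systemic signal N-hydroxypipecolic acid, read 40.75 and 32.11 in WT and 226.1 and 453.6 in the triple mutant, while ALD1, which acts earlier in that branch, overlapped between groups (21.24 and 26.08 in WT and 8.078 and 39.63 in the triple mutant, adjusted p = 0.73). In the EDS1 node, a lipase-like hub downstream of cytoplasmic receptors, SAG101 rose by 2.35 and PAD4 by 1.15, and EDS1 itself did not pass (0.33, adjusted p = 0.085). The salicylic acid receptor genes NPR1 and NPR3 rose by 0.67 and 1.15, and their partner gene NIMIN1 by 3.37 from a WT level of 6.915 and 3.554.

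WRKY genes encode zinc-finger factors that bind the W box and are induced by infection. Of 21 members 20 were called higher, none lower, and the median was 2.65. WRKY53 read 69.13 and 70.27 in WT and 1694 and 2290 in the triple mutant (4.80 ± 0.30, adjusted p = 4.9e-06). WRKY38, a repressor of basal resistance with its relative WRKY62, read 12.84 and 11.18 in WT and 333.6 and 442.5 in the triple mutant (4.89 ± 0.43), and WRKY62 read 1.314 and 5.695 in WT and 125.6 and 137.3 in the triple mutant (5.07 ± 0.55). Every tcx5/6;ddm1 library was above every WT library for these 3 genes. The WRKY62 value depended on its low WT level, at 4.30 without WT replicate 1 and 5.84 without WT replicate 2. WRKY33 (2.85), which activates camalexin genes, WRKY18 (4.15), WRKY40 (4.04) and WRKY70 (2.13) also rose, and WRKY28 did not pass (adjusted p = 0.49).

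The 250 bases upstream of the annotated starts of SARD1 and WRKY53 are printed because these regulators rose by more than 4 on the log2 scale and carry several copies of the W box core, TTGAC, on either strand, and they were chosen after their values were seen. Capitals mark the core or its reverse complement GTCAA, and both genes lie on the minus strand of TAIR10.1 (RefSeq).
SARD1, chr1:27749249-27749498: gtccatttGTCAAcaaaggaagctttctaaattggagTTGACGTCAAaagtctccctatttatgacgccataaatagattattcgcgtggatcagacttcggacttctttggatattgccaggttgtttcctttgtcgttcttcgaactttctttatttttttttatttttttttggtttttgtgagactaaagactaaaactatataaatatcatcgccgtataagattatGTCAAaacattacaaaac
WRKY53, chr4:12393983-12394232: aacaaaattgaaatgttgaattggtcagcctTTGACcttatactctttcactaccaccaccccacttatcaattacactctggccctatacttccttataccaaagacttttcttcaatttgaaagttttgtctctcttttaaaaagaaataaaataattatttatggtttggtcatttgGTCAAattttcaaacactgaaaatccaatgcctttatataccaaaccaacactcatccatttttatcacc
SARD1 held 4 such cores, 2 of them back to back, and WRKY53 held 2. The core occurred in such a window of 16 of 21 (76.2%) WRKY genes, of 18 of 19 (94.7%) pattern receptor and signalling genes, of 10 of 22 (45.5%) salicylic acid genes and of 7 of 14 (50%) antimicrobial protein genes, beside 12329 of 27443 (44.9%) protein-coding genes. A match of 5 letters is a description and was not tested as a binding site.

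Antimicrobial protein genes had the largest median change of the 24 lists, 5.49. Of 14 members 11 were called higher, 2 lower and 1 was not called. PR1 (chromosome 2, 6241640 to 6242541), the standard salicylic acid marker, read 500.4 and 394.7 in WT and 80573 and 129420 in the triple mutant (7.84 ± 0.27, adjusted p = 4e-07), a 235-fold higher mean. PR2, a beta-1,3-glucanase, read 254.2 and 262.3 in WT and 7908 and 13322 in the triple mutant (41.1-fold), and PR5, a thaumatin-like protein, read 256.3 and 239.7 in WT and 6879 and 11548 in the triple mutant (37.2-fold). No library of the 2 groups overlapped for these 3 genes, and replicate 2 of tcx5/6;ddm1 was the higher in each. PR1, PR2 and PR5 were also above ddm1 (adjusted p = 0.0047, 0.0013 and 0.0025), PR1 by 1.37, PR2 by 1.31 and PR5 by 1.49 without ddm1 replicate 1 and 2.71 without ddm1 replicate 2. Among the defensins, which mark jasmonate and ethylene output, PDF1.3 read 49.25 and 51.42 in WT and 6383 and 8787 in the triple mutant, with 2026 and 5667 in ddm1 and 359.7 and 340.6 in tcx5/6. PDF1.2 read 28.71 and 11.12 in WT and 5621 and 6071 in the triple mutant, and PDF1.2b read 0.05022 and 2.795 in WT and 803.5 and 1108 in the triple mutant. The defensin differences moved with single WT libraries, from 7.62 to 8.91 for PDF1.2 without WT replicate 2 or 1, and from 7.96 to 9.81 for PDF1.2b without WT replicate 1 or 2. THI2.1, a thionin gene, was listed at 0 in both WT libraries and at 44.91 and 55.77 in the triple mutant. The 2 members called lower were THI2.2, its relative, at 594 and 655.2 in WT and 112.6 and 161.9 in the triple mutant (-2.20 ± 0.21), and PRB1, the basic relative of PR1, at 427.2 and 393.1 in WT and 27.52 and 35.04 in the triple mutant (-3.68, adjusted p = 0.012). The PRB1 call was lost without WT replicate 1 (0.061), WT replicate 2 (0.056) or tcx5/6;ddm1 replicate 1 (0.058).

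**Figure D2:**
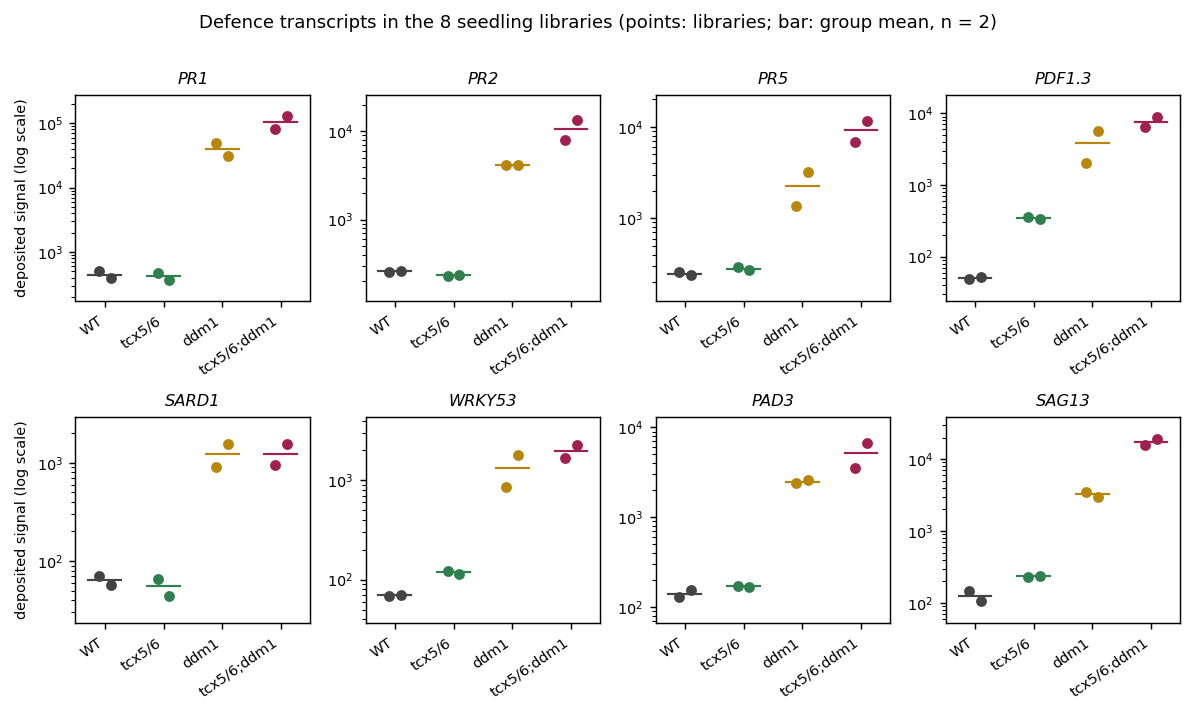
Deposited signal (log axis) of 8 defence transcripts in each of the 8 seedling libraries, with points for libraries and a bar for the mean of the 2 replicates of a group. In each panel both tcx5/6;ddm1 points lie above both WT points, PR1 from 394.7 and 500.4 to 80573 and 129420, and the ddm1 points lie above WT as well.

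Surface receptors and their signalling partners were higher in 17 of 19 cases, with 1 lower and a median of 1.47. The receptor genes LYK5, for chitin, RLP23, for a fungal and bacterial peptide, and EFR, for bacterial elongation factor Tu, rose by 2.31 ± 0.16, 2.25 ± 0.34 and 1.58 ± 0.13. FLS2, the flagellin receptor, rose by only 0.43 and lay below ddm1 (-0.85, adjusted p = 6.2e-05). MPK11, a MAP kinase gene of the immune cascade, read 43.42 and 46.63 in WT and 464.3 and 621.5 in the triple mutant (3.55 ± 0.35), and MPK3 rose by 1.55. MPK6, which acts beside MPK3, was the member called lower, at 2027 and 2008 in WT and 1443 and 1584 in the triple mutant (-0.42 ± 0.07, adjusted p = 0.00098). The NADPH oxidase gene RBOHD read 1790 and 2025 in WT and 7392 and 8096 in the triple mutant (2.02 ± 0.15). NHL10, a marker of flagellin response, read 21.11 and 21.84 in WT and 83.22 and 262.3 in the triple mutant, with a difference of 3.55 without tcx5/6;ddm1 replicate 1 and 1.91 without tcx5/6;ddm1 replicate 2, and FRK1, another such marker, did not pass (0.36, adjusted p = 0.34).

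Cytoplasmic NLR receptor genes changed less. Of 17 tested, 7 were called higher (41.2%), 1 lower and 9 were not called, and the median was 0.21, so their count lay nearer the background of 29.5% than that of the surface receptors. The 3 helper NLR genes kept in the list, which relay signals from several sensors, all rose. The helper genes NRG1.1 and NRG1.2 were not read, because their symbols did not match the annotation. ADR1 read 400.3 and 375.7 in WT and 1260 and 1349 in the triple mutant (1.75 ± 0.10, adjusted p = 3.6e-06), also above ddm1 at 713.3 and 606.4 (0.99, adjusted p = 0.00022), and ADR1-L1 rose from 1768 and 1834 to 3584 and 4161 and ADR1-L2 from 1114 and 981.2 to 2425 and 2694. Among sensors, ZAR1 rose by 1.21, while SNC1 (0.05), RPP4 (-0.22) and RPP8 (-0.08) did not pass and CHS3 was called lower (-0.26). The CHS3 call was lost without WT replicate 2 (adjusted p = 0.052). RPS2 was listed at 0 in all 8 libraries, which does not show whether it was silent or not counted.

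Jasmonate synthesis and repressor genes were mostly higher. Of 23 jasmonate and ethylene genes tested, 18 were called higher, 3 lower and 2 were not called, with a median of 2.23. The lipoxygenase gene LOX4, which acts at the first committed step, read 72.44 and 64.71 in WT and 2348 and 2503 in the triple mutant (5.13 ± 0.32, adjusted p = 4.6e-06). LOX2, another of these enzymes, rose by 2.21, the cyclase gene AOC3 by 2.48 and the reductase gene OPR3 by 2.23. All 5 JAZ repressor genes were called higher. JAZ5 read 28.16 and 29.59 in WT and 362.8 and 339.9 in the triple mutant, with 91.59 and 127.8 in ddm1 and 32.92 and 33.53 in tcx5/6, and the tcx5/6;ddm1 libraries stood above all others (1.69 against ddm1, adjusted p = 0.0012). JAZ10 behaved alike, with 1.87 against ddm1 (adjusted p = 0.00016). In the ethylene branch ERF1 and ORA59, which drive defensin genes, rose by 3.33 ± 0.36 and 3.41 ± 0.23. Members called lower included JAR1, which conjugates jasmonate to isoleucine (-0.37), and EIN3, the main ethylene response factor (-0.26). Calls of JAR1 and EIN3 were lost without WT replicate 1 (adjusted p = 0.074 and 0.09), WT replicate 2 (0.097 and 0.14) or tcx5/6;ddm1 replicate 1 (0.066 and 0.13). MYC2 was listed at 0 in all 8 libraries, which does not show whether it was silent or not counted.

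The sulfur-rich defence compounds split into indole and aliphatic routes. Of 14 camalexin and indole glucosinolate genes 11 were called higher and 2 lower (median 2.04), whereas of 17 aliphatic glucosinolate and myrosinase genes 2 were called higher and 14 lower (median -0.68). PAD3, the last enzyme of camalexin, the main phytoalexin of Arabidopsis, read 128 and 153.3 in WT and 3545 and 6738 in the triple mutant (5.11 ± 0.25, adjusted p = 1.6e-06), and CYP71A13, an earlier enzyme, read 26.18 and 40.74 in WT and 640.4 and 1792 in the triple mutant. Replicate 2 of tcx5/6;ddm1 was the higher for both, and the CYP71A13 difference was 4.25 without it and 5.73 without tcx5/6;ddm1 replicate 1. CYP81F2, which makes the indole glucosinolate broken down in defence, rose by 3.70, and PEN2 and PEN3, the enzyme and the exporter of those breakdown products, by 1.53 and 2.56. The MYB factors of the indole route parted. MYB51 rose from 228.2 and 211.7 to 1725 and 2507 and MYB122 by 2.65, while MYB34 fell from 1788 and 1637 to 315.6 and 357 (-2.35 ± 0.15, adjusted p = 5.1e-06). CYP79B2 and CYP79B3, which catalyse the same step, likewise moved apart, by 0.94 ± 0.15 and -1.26 ± 0.15.

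In the aliphatic route the regulators MYB76 and MYB29 fell most. MYB76 read 99.13 and 144.2 in WT and 20.3 and 31.34 in the triple mutant, MYB29 1521 and 1612 in WT and 535.8 and 436.8 in the triple mutant (-1.69 ± 0.12), and MYB28 fell by 0.80 on the log2 scale. All 9 synthesis enzyme genes were called lower, between -1.12 for BCAT4 and -0.43 for CYP83A1. The MAM1 call was lost without WT replicate 2 (adjusted p = 0.055). ESM1 and ESP, proteins that steer what glucosinolates break down into, were the 2 members called higher. ESM1 read 20507 and 20102 in WT and 104654 and 77820 in the triple mutant, with 115381 and 104038 in ddm1 and 1064 and 1076 in tcx5/6. The ddm1 and tcx5/6;ddm1 libraries overlapped, and tcx5/6 alone lay below WT. Against tcx5/6 the ESM1 difference was 6.40 (adjusted p = 5.8e-08) and against WT 2.15 ± 0.13. Likewise QQS, a gene of starch content known for variable methylation, read 1021 and 1031 in WT and 2246 and 1991 in the triple mutant, with 1826 and 1851 in ddm1 and listings of 0 for tcx5/6.

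Phenylpropanoid genes moved in both directions. Of 20 tested, 11 were called higher, 6 lower and 3 were not called (median 0.76). DFR, the first enzyme dedicated to anthocyanin, read 170.7 and 240.7 in WT and 1397 and 1349 in the triple mutant (2.75 ± 0.19, adjusted p = 6.6e-06), above ddm1 at 691.2 and 804.3 (adjusted p = 0.0065). GSTF12, which carries anthocyanin to the vacuole, and LDOX, the enzyme after DFR, rose by 2.53 and 1.59. The entry enzymes PAL1 and PAL2 were lower (-0.43 and -0.62), as were UGT78D2 and SCPL10, which decorate flavonoids (-0.90 and -1.39). MYBL2, a repressor of anthocyanin genes, read 2652 and 3419 in WT and 393.4 and 227.6 in the triple mutant, with 2160 and 2094 in ddm1 and 1720 and 1859 in tcx5/6. Its tcx5/6;ddm1 libraries were the lowest of the 8, with a difference of -3.33 ± 0.22 from WT and -2.83 from ddm1 (adjusted p = 6.3e-05). PAP2, an activator, read 0.09933 and 5.535 in WT and 118.3 and 65.62 in the triple mutant, with a difference of 3.77 without WT replicate 1 and 6.34 without WT replicate 2. F3H was listed at 0 in all 8 libraries, which does not show whether it was silent or not counted.

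Transcripts of oxidative stress were mostly higher, with 19 of 25 called higher, 3 lower and a median of 1.25. The catalases, which remove hydrogen peroxide in peroxisomes, moved in opposite directions. CAT2 read 43325 and 49767 in WT and 3911 and 3210 in the triple mutant, with 6090 and 8434 in ddm1 and 33681 and 36100 in tcx5/6 (-3.71 ± 0.16 against WT, adjusted p = 8.7e-07). CAT3 read 45937 and 52737 in WT and 198089 and 237499 in the triple mutant (2.14 ± 0.14). CAT2 and CAT3 are known to peak at opposite times of day, so they stand beside the clock values below. GSTF6, a glutathione transferase induced by salicylic acid, read 1161 and 1212 in WT and 16412 and 25155 in the triple mutant, a 17.5-fold higher mean. AOX1D, a mitochondrial alternative oxidase, read 25.29 and 10.86 in WT and 481.2 and 815.3 in the triple mutant (5.15 ± 0.61). APX2, an ascorbate peroxidase of strong light, read 3.515 and 3.21 in WT, 3.89 and 5.086 in ddm1, 35.25 and 29.52 in tcx5/6 and 52.07 and 76.37 in the triple mutant, so the 2 groups with TCX5 and TCX6 labelled as mutated were the high ones. UGT74E2, an auxin glucosyltransferase gene, fell by 1.49 on the log2 scale.

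Heat shock and folding genes were higher or not called. Of 20 members 10 were called higher, none lower and 10 were not called (median 0.90). The factor genes HSFA3 and HSFB1 rose by 2.36 ± 0.23 and 1.82 ± 0.10. BIP1 and BIP2, chaperones of the endoplasmic reticulum needed for secretion of PR proteins, rose by 0.95 and 0.77, and both were above ddm1 (0.62 and 0.64, adjusted p = 0.00046 and 0.00094). HSP101 (adjusted p = 1), HSP70-4 (-0.39, 0.078) and ROF1 (-0.03, 0.7) did not pass. HSP17.4, HSP17.6II, HSP21 and HSP22.0, the small chaperones of acute heat, were at or under 8.794 in all WT and tcx5/6;ddm1 libraries. HSP23.6-MITO, a mitochondrial relative, read 1.197 and 1.565 in WT and 32.56 and 7.713 in the triple mutant, a difference of 1.88 without tcx5/6;ddm1 replicate 1 and 3.82 without tcx5/6;ddm1 replicate 2, and its call was lost without WT replicate 1 (adjusted p = 0.052).

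Cold and abscisic acid genes changed in both directions. Of 23 members 12 were called higher, 7 lower and 4 were not called (median 0.81). CBF1, a factor that switches on cold genes, read 2.38 and 3.082 in WT and 122.4 and 71.04 in the triple mutant (4.67 ± 0.44), and CBF2 rose by 3.33. Their known target COR15B, a chloroplast protectant, read 115.2 and 139.3 in WT and 1831 and 1560 in the triple mutant, with 7438 and 5090 in ddm1 and 15.77 and 26.4 in tcx5/6. KIN2, another cold gene, read 1397 and 1462 in WT and 7483 and 8456 in the triple mutant. Both rose against WT (3.73 and 2.48) and both were lower than in ddm1 (-1.86, adjusted p = 0.00082, and -1.39, adjusted p = 4.5e-05). Among genes that mark drought and abscisic acid response, RD29A and RD22 rose by 1.46 and 0.94, while others were lower. The dehydrin gene RAB18 read 906.5 and 1338 in WT and 201.9 and 283.8 in the triple mutant (-2.20 ± 0.23, adjusted p = 6.7e-05), also below ddm1 at 1224 and 1593. RD29B read 91.61 and 186.7 in WT and 6.568 and 41.22 in the triple mutant, with a difference of -1.64 without tcx5/6;ddm1 replicate 1 and -4.12 without tcx5/6;ddm1 replicate 2, and its call was lost without WT replicate 2 (adjusted p = 0.075). KIN1, a near copy of KIN2, fell by 1.48 on the log2 scale, and how reads shared by these copies were divided is not given. The phosphatase gene HAB1 fell by 1.22 on that scale and P5CS1, which makes proline, by 1.58.

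Senescence genes gave no common direction, with 3 of 11 called higher, 3 lower and 5 not called (median 0.13). SAG13, a dehydrogenase-like gene used as a marker of cell death and senescence, read 144.6 and 106.8 in WT and 15610 and 18825 in the triple mutant, with 3538 and 2940 in ddm1 and 228.8 and 237.6 in tcx5/6. This was 7.10 ± 0.16 against WT (adjusted p = 1.2e-07) and 2.41 against ddm1 (adjusted p = 2.7e-05). The senescence factor gene NAP and the dark-induced gene SEN1 fell, NAP from 639.6 and 973.3 to 302.3 and 300.4 and SEN1 from 2953 and 2673 to 625.9 and 1079. SAG12, a protease specific to leaf senescence, was listed at 0 in both WT libraries and at 159.5 and 8.335 in the triple mutant, and its call was lost without WT replicate 1 (adjusted p = 0.098), WT replicate 2 (0.098) or tcx5/6;ddm1 replicate 1 (0.17). Of 4 chlorophyll breakdown genes PAO, which opens the ring of the pigment, was called lower (-0.39 ± 0.09, adjusted p = 0.0063), and NYE1, NYC1 and PPH did not pass.

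The circadian clock genes were all called, 6 higher and 6 lower of 12. The morning genes fell. CCA1 read 6975 and 7577 in WT and 476.7 and 248.9 in the triple mutant, with 802.3 and 1016 in ddm1 and 5215 and 5519 in tcx5/6 (-4.40 ± 0.25 against WT, adjusted p = 3.2e-06), and LHY, its partner, fell by 4.08 on the log2 scale. The evening genes rose, ELF4 from 38.99 and 51.96 to 1137 and 1375 and LUX from 320.7 and 306.7 to 2309 and 2576, both parts of the evening complex. TOC1 rose by 2.31 and GI by 1.36. For these 6 genes WT and tcx5/6 stood on one side, and ddm1 and tcx5/6;ddm1 on the other, the same split as that of the zeros in 1 replicate alone. PRR7, a daytime repressor, differed least (-0.32), and its call was lost without WT replicate 2 (adjusted p = 0.081). Against ddm1 the differences of the 12 genes ran from -1.39 for CCA1 to 0.63 for LHY, with 1 called higher and 9 lower (8 without ddm1 replicate 1), where 39.3% of all genes were called, 17.7% higher and 21.6% lower. The hour of collection is not given, and its part in the values of genes that follow the day, which include the catalase, cold, light harvesting and starch genes, was not tested.

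The 250 bases upstream of LUX are shown because 2 copies of the evening element, AAATATCT, lie there on opposite strands, in capitals on the plus strand of TAIR10.1 (RefSeq). LUX and SPX3, shown further on, were chosen after their values and motifs were seen.
LUX, chr3:17182792-17183041: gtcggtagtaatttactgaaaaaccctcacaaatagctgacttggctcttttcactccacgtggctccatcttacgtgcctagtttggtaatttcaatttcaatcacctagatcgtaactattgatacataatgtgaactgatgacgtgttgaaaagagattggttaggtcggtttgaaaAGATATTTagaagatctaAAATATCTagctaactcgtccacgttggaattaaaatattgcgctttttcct
The element, on either strand, was found in this window of 3 of 5 (60%) evening genes and 0 of 4 (0%) morning genes, beside 1314 of 27443 (4.79%) protein-coding genes.

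Chloroplast genes were lower in tcx5/6;ddm1 than in WT, ddm1 and tcx5/6. Of 25 light harvesting and carbon fixation genes none was called higher and 24 were called lower than in WT, with a median of -1.03 beside 0.02 over all genes. Against ddm1, 22 of 25 were called lower and none higher. Against tcx5/6, where 51.7% of all genes were called, 26.0% lower and 25.7% higher, 19 of 25 were lower and none higher, or 11 lower without tcx5/6 replicate 2. The largest falls were in the Calvin cycle. RCA, the activase of Rubisco, read 339253 and 350797 in WT and 79531 and 59310 in the triple mutant, with 129877 and 141809 in ddm1 and 267418 and 283505 in tcx5/6 (-2.33 ± 0.18 against WT, adjusted p = 1.3e-05). PRK, which regenerates the acceptor of carbon dioxide, read 53321 and 54284 in WT and 14470 and 12498 in the triple mutant, with 29645 and 35526 in ddm1 and 37979 and 41103 in tcx5/6 (-2.00 ± 0.11). In both genes the tcx5/6;ddm1 libraries were the lowest of the 8 and no groups overlapped. The antenna genes of photosystem I, LHCA1 to LHCA4, ran in another order, with both ddm1 libraries above both WT libraries. LHCA1 read 171421 and 183531 in WT and 115926 and 93459 in the triple mutant, with 294308 and 281398 in ddm1, so that it fell by 0.77 against WT and by 1.47 against ddm1 (adjusted p = 0.00027). LHCB2.1, of photosystem II, read 129118 and 135444 in WT and 43126 and 35312 in the triple mutant (-1.76 ± 0.13). PETE1, a plastocyanin, was the member not called against WT (-0.10, adjusted p = 0.38). Calls were lost for LHCB4.1 without WT replicate 1 (adjusted p = 0.072) or WT replicate 2 (0.14), for RBCS1A likewise (0.19 and 0.23), and for LHCA2 (0.054) and PSBR (0.086) without WT replicate 2.

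Pigment synthesis genes were mostly lower too. Of 11 chlorophyll genes 9 were called lower and 1 higher (median -1.28). GUN5, the H subunit of magnesium chelatase, read 113145 and 121265 in WT and 27675 and 23337 in the triple mutant (-2.20 ± 0.12, adjusted p = 2.3e-06), and CRD1, the cyclase, read 80583 and 87784 in WT and 22490 and 18305 in the triple mutant (-2.05 ± 0.12). No libraries of the 2 groups overlapped. PORB, a light-dependent protochlorophyllide reductase, was the exception, at 13663 and 16358 in WT and 47254 and 43920 in the triple mutant, with 94697 and 88833 in ddm1, hence above WT (1.61 ± 0.12) and below ddm1 (-1.01, adjusted p = 0.00048). Of 13 isoprenoid and carotenoid genes 12 were called lower and 1 higher (median -1.14). BCH2, a beta-carotene hydroxylase, read 1480 and 1474 in WT and 59.37 and 35.19 in the triple mutant, with 199.9 and 227.6 in ddm1 and 948.5 and 944 in tcx5/6 (-4.98 ± 0.21 against WT), while BCH1, of the same function, fell by 0.85. ABA1, zeaxanthin epoxidase, which also feeds abscisic acid synthesis, read 25512 and 27781 in WT and 4250 and 3688 in the triple mutant (-2.75 ± 0.10). The gene called higher was DXPS1, a relative of the plastid isoprenoid enzyme CLA1, at 4.596 and 1.905 in WT and 2106 and 2603 in the triple mutant, with 1120 and 784.2 in ddm1 and 4.351 and 7.32 in tcx5/6, while CLA1 itself fell by 1.29 on the log2 scale.

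**Figure D3:**
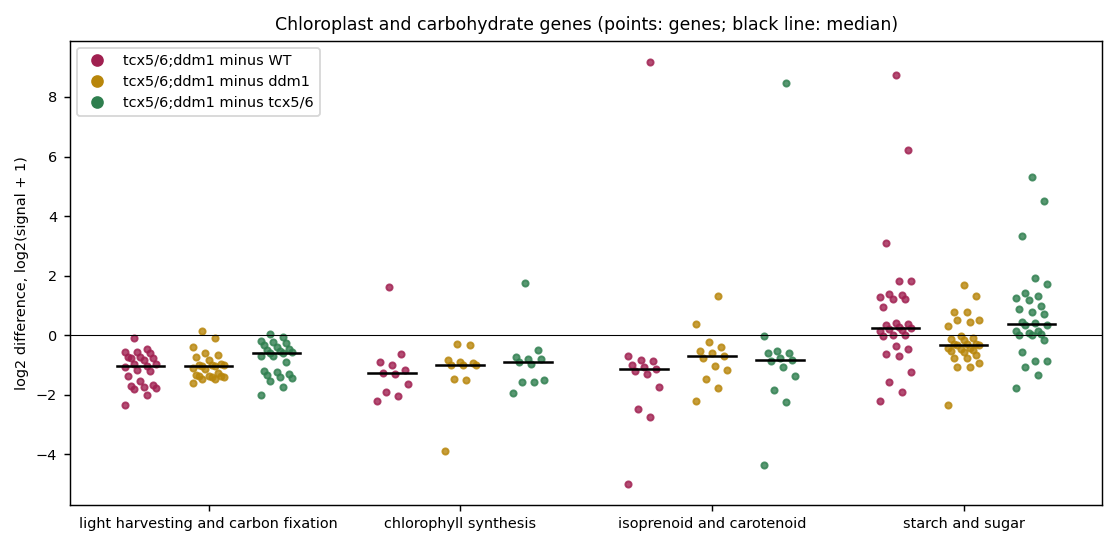
Log2 differences of log2(signal + 1) between tcx5/6;ddm1 and WT (red), ddm1 (ochre) or tcx5/6 (green) for each gene of 4 lists, with a black line at the median. For light harvesting and carbon fixation the medians lie at -1.03, -1.04 and -0.59, and the outlying points at the top are DXPS1 and BAM5.

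Starch and sugar genes changed without a common direction. Of 30 members 16 were called higher, 7 lower and 7 were not called (median 0.26). In synthesis, APL1, the leaf ADP-glucose pyrophosphorylase subunit, read 6145 and 6334 in WT and 1402 and 1338 in the triple mutant (-2.19 ± 0.06, adjusted p = 2.3e-07), and the starch synthase genes SS2 and GBSS1 fell by 1.58 and 1.22 on the log2 scale. APL3, a subunit of sink tissues induced by sugar, rose by 1.81. GPT2, the sugar-induced importer of glucose 6-phosphate into plastids, read 70.24 and 68.9 in WT and 5158 and 5358 in the triple mutant, with 1649 and 2715 in ddm1 and 278.3 and 186.2 in tcx5/6 (6.22 ± 0.24 against WT). Its level stood above that of all other groups, with 1.31 against ddm1 (adjusted p = 0.0034). In breakdown, BAM5, a cytosolic beta-amylase of the phloem, read 85.14 and 131.4 in WT and 37826 and 55570 in the triple mutant, with 7961 and 25534 in ddm1 and 1720 and 773.2 in tcx5/6 (431-fold the WT mean, 8.75 ± 0.54). BAM6 fell by 1.90 on the log2 scale. In transport, STP13, a hexose importer of defence, rose from 354.7 and 342.6 to 2307 and 3825, while STP1, another hexose importer, fell from 3105 and 3369 to 2034 and 2115.

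In nitrogen metabolism 7 of 12 genes were called higher and 4 lower (median 0.41). Those that fell included GS2, the plastid glutamine synthetase, from 67878 and 70406 to 27010 and 23120 (-1.47 ± 0.12), and ASN1, a dark-induced asparagine synthetase, from 4093 and 4351 to 1438 and 1334. Those that rose included GDH2, which releases ammonium from glutamate, from 4158 and 3597 to 10749 and 11312 (1.51 ± 0.09), and the cytosolic glutamine synthetase gene GLN1;4 from 71.39 and 68.98 to 163.3 and 242.8.

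Several iron genes were higher in tcx5/6;ddm1 than in WT, ddm1 and tcx5/6 alike. Plants short of iron induce a small group of bHLH factors, which act with FIT on the reductase FRO2 and the transporter IRT1, and store surplus iron in ferritins. Of 13 genes 7 were called higher than in WT, none lower and 6 were not called (median 0.54). Against ddm1 8 were called higher and 2 lower, beside 17.7% and 21.6% of all genes. Against tcx5/6 8 were called higher and 3 lower, beside 25.7% and 26.0% of all genes. BHLH39 (chromosome 3, 21086390 to 21087710) read 360.9 and 260.9 in WT and 1257 and 1153 in the triple mutant, with 157.7 and 162.5 in ddm1 and 40.66 and 58.07 in tcx5/6. The tcx5/6;ddm1 level was 1.97 ± 0.21 above WT (adjusted p = 9.5e-05), 2.90 above ddm1 (4.6e-05) and 4.60 above tcx5/6 (1.7e-06). BHLH38 read 306.1 and 149.5 in WT and 845.8 and 865.7 in the triple mutant, with 84.71 and 89.31 in ddm1 and 32.37 and 47.5 in tcx5/6, and BHLH100 read 481 and 298.4 in WT and 1241 and 1241 in the triple mutant, with 157.4 and 171.9 in ddm1 and 33 and 34.94 in tcx5/6. For all 3 genes the 4 groups did not overlap and tcx5/6 was the lowest. IRT1 read 113.2 and 164.4 in WT and 689.7 and 1015 in the triple mutant, with 218.5 and 174.5 in ddm1 and 259.7 and 150.5 in tcx5/6. Its tcx5/6;ddm1 level was above WT by 2.61 (adjusted p = 0.00015), above tcx5/6 by 2.08 (0.00065) and above ddm1 by 2.09 (0.0011). FRO2 was higher than in WT by 1.90, than in tcx5/6 by 1.76 and than in ddm1 by 2.01. FIT (-0.83, adjusted p = 0.12) and BHLH101 (-0.58, 0.081) did not pass against WT. The ferritin genes FER1 and FER4 did not pass against WT (adjusted p = 0.055 and 0.3) but were lower than in ddm1 by 1.69 and 1.63 and lower than in tcx5/6 by 1.26 and 0.84 on the log2 scale. Root markers had a lower summed signal in tcx5/6;ddm1 than in WT, as given above. The organ in which these iron genes were expressed was not measured.

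**Figure D4:**
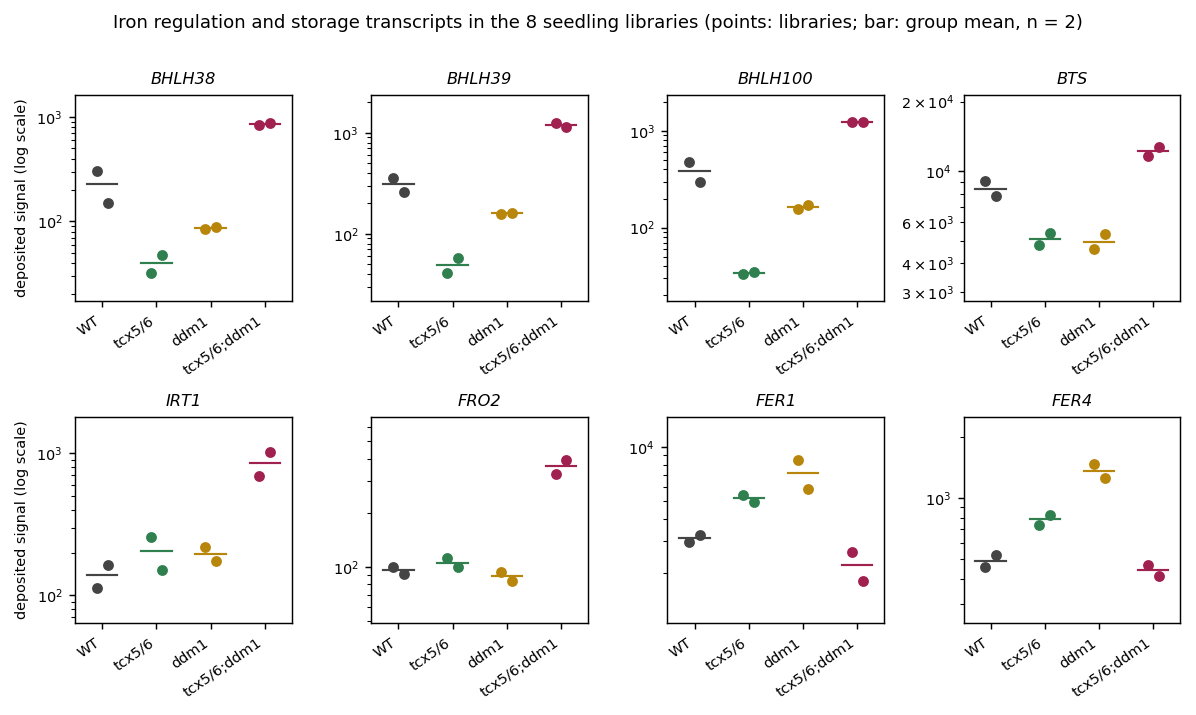
Deposited signal (log axis) of 8 iron genes in each of the 8 seedling libraries, with points for libraries and a bar for the mean of the 2 replicates of a group. BHLH38, BHLH39, BHLH100, BTS, IRT1 and FRO2 are highest in tcx5/6;ddm1, and FER1 and FER4 are lower there than in tcx5/6 and ddm1.

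Phosphate starvation genes were mostly higher than in WT. Of 14 members 12 were called higher, 2 lower and none was left without a call (median 1.74). IPS1, a non-coding RNA that buffers a microRNA of phosphate balance, read 65.98 and 84.56 in WT and 1476 and 2226 in the triple mutant, with 3966 and 4641 in ddm1 and 204.2 and 164.8 in tcx5/6 (4.58 ± 0.21 against WT). RNS1, an RNase that recovers phosphate, read 15.68 and 31.11 in WT and 1491 and 1320 in the triple mutant (5.92 ± 0.28), and the lipid remodelling gene MGD3 rose by 3.20. Against ddm1 none of the 14 was called higher and 9 were called lower (7 without ddm1 replicate 1), among them IPS1 (-1.24, adjusted p = 0.0023). The members called lower than in WT were PHT1;1, a root phosphate importer (1793 and 1941 in WT and 1257 and 1250 in the triple mutant), and PHO1;H1, an exporter (-0.57). SPX3, a phosphate sensor gene, rose from 88.89 and 83.26 to 1180 and 1259, and its 250 upstream bases are shown because they hold 2 copies of the P1BS element (GNATATNC, in capitals), the motif bound by the phosphate factor PHR1, on the plus strand of TAIR10.1 (RefSeq).
SPX3, chr2:18606160-18606409: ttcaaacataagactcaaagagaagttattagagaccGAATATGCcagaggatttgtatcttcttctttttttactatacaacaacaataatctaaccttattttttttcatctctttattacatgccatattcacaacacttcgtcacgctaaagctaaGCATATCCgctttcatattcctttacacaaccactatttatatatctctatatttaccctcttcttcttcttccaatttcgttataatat
This element was found in such a window of 4 of 14 (28.6%) phosphate genes, beside 1498 of 27443 (5.46%) protein-coding genes.

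Among 11 sulfur genes 8 were called higher and 1 lower (median 1.06), or 2 lower without tcx5/6;ddm1 replicate 2. LSU1 and LSU2, small proteins of sulfur shortage, both rose. LSU1 read 287 and 301.2 in WT and 1700 and 2671 in the triple mutant (2.85 ± 0.24), and LSU2 read 517 and 431.6 in WT and 2194 and 2888 in the triple mutant (2.41 ± 0.15). The reductase gene APR3, which makes sulfite, rose by 1.63 and was above ddm1 (1.06, adjusted p = 0.00069). BGLU28, which releases sulfur from glucosinolates and is a usual companion of the LSU genes, was called lower (-0.83, adjusted p = 0.04), a call lost without WT replicate 2 (0.24) or tcx5/6;ddm1 replicate 1 (0.2).

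Outside the lists, the 12 largest rises among genes with a symbol included genes that were also higher than in ddm1. ADPG1, a pectin-degrading polygalacturonase of cell separation, was listed at 0 in both WT libraries and at 453.5 and 567.8 in the triple mutant, with 4.4 and 0 in ddm1 and 0.05207 and 1.415 in tcx5/6. AO4, an aldehyde oxidase, read 4.54 and 0.2615 in WT and 1298 and 1682 in the triple mutant, with 144.5 and 50.52 in ddm1 and 192 and 203.9 in tcx5/6. Both were above ddm1 (ADPG1 7.77, adjusted p = 0.00021, and AO4 4.09, adjusted p = 0.0021). Without ddm1 replicate 1 or 2 these differences were 8.99 or 6.56 for ADPG1 and 4.84 or 3.35 for AO4. NATA1, an acetyltransferase that makes the jasmonate-induced compound N-acetylornithine, rose from 12.69 and 6.937 to 2913 and 4031 (8.36 ± 0.36). The MIR854 precursor genes, which lie in transposon sequence, were listed at 0 in all WT and tcx5/6 libraries, and MIR854c read 379.4 and 323.4 in the triple mutant and 954.7 and 1102 in ddm1. In tcx5/6;ddm1 MIR854a read 265.7 and 208.7, and MIR854b read 279.2 and 279.9. COR27 and FKF1, genes of the evening, rose by 7.24 and 6.87. The remaining rises were CSLG2, a cellulose synthase-like gene (8.71), the glutathione transferase gene GSTU3 (8.33), the histidine synthesis gene HISN6B (7.01) and OFP9, a transcription repressor (6.92), whose sizes rest on WT levels under 10. Without WT replicate 1 or 2, respectively, the differences were 10.19 and 8.06 for AO4, 9.96 and 7.47 for CSLG2, 7.40 and 9.26 for GSTU3, 7.83 and 6.20 for HISN6B, and 5.99 and 7.85 for OFP9.

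The 12 largest falls were in enzyme, chloroplast and morning genes, among others. TPS12, a terpene synthase, read 368.3 and 308.1 in WT and 1.319 and 2.026 in the triple mutant, with 47.86 and 12.5 in ddm1 and 177.5 and 163.8 in tcx5/6 (-6.99 ± 0.55 against WT). SIGE, a sigma factor of the chloroplast RNA polymerase, read 3907 and 4784 in WT and 185.9 and 169 in the triple mutant, and FADA, a chloroplast fatty acid desaturase, 1220 and 1323 in WT and 38.86 and 12.29 in the triple mutant. The desaturase gene ADS1 (-4.06), the alternative NAD(P)H dehydrogenase gene NDA1 (-4.01), the cellulase gene CEL2 (-4.54) and CYP77B1 (-3.97), a cytochrome P450, were all below ddm1 as well. RVE1 and COL2, genes of the morning, fell by 3.92 and 4.15. SAE1B, a subunit of the SUMO-activating enzyme, read 1029 and 732 in WT and 18.23 and 28.65 in the triple mutant. It read 27.76 and 44.28 in ddm1 and 18.36 and 26.65 in tcx5/6, so the listed value was high in WT alone. How reads shared with SAE1 paralogs were counted is not given. BGLU7, a beta-glucosidase, read 347.8 and 345.4 in WT and 4.623 and 0 in the triple mutant, and NIG1, a calcium-binding factor of the bHLH family, 279.6 and 379.8 in WT and 28.01 and 1.137 in the triple mutant. Without tcx5/6;ddm1 replicate 1 or 2, respectively, the differences were -8.44 and -5.95 for BGLU7, -6.58 and -5.00 for FADA, and -7.26 and -3.49 for NIG1.

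Set beside ddm1, whose zeros were like those of tcx5/6;ddm1, the lists gave different counts. Over all genes the median difference from ddm1 was -0.02, beside the shares called of 17.7% higher and 21.6% lower. Salicylic acid genes had none of 22 higher and 3 lower, a median of -0.15, and pattern receptor genes 2 higher and 2 lower of 19, with the same median. Antimicrobial genes had 7 of 14 higher and none lower (median 1.12), and jasmonate and ethylene genes 11 higher and 5 lower of 23 (median 0.53). Phenylpropanoid genes had 11 of 20 higher and 1 lower (median 0.68), and intracellular receptor genes 1 higher and 11 lower of 17 (median -0.43). Light harvesting, chlorophyll and carotenoid genes were lower in 22 of 25, 9 of 11 and 10 of 13 cases, and the same numbers were called lower without ddm1 replicate 1, the library with seed storage transcripts. Several of the smaller counts moved with single libraries. Without ddm1 replicate 1 the members called higher were 6 antimicrobial, 8 jasmonate and ethylene and 7 phenylpropanoid genes, and those called lower were 3 jasmonate and ethylene, 3 pattern receptor and 13 of 16 intracellular receptor genes. Without ddm1 replicate 2 only 6 intracellular receptor genes were lower, 1 salicylic acid gene and 3 jasmonate and ethylene genes. Without tcx5/6;ddm1 replicate 1 the counts were 6 phenylpropanoid genes higher, and 1 salicylic acid, 1 pattern receptor and 3 jasmonate and ethylene genes lower. Without tcx5/6;ddm1 replicate 2 they were 4 antimicrobial genes and 1 pattern receptor gene higher, and 6 salicylic acid and 5 pattern receptor genes lower. Leaving out ddm1 replicate 1 or 2 also left 1 pattern receptor gene higher. Against tcx5/6 the medians of most defence lists lay near those against WT. WRKY factors had 19 of 21 higher (median 2.35) and phosphate genes 12 of 14 (median 1.68). WT, ddm1 and tcx5/6 were each set against the same 2 tcx5/6;ddm1 libraries, so the 3 comparisons are not independent.

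**Figure D5:**
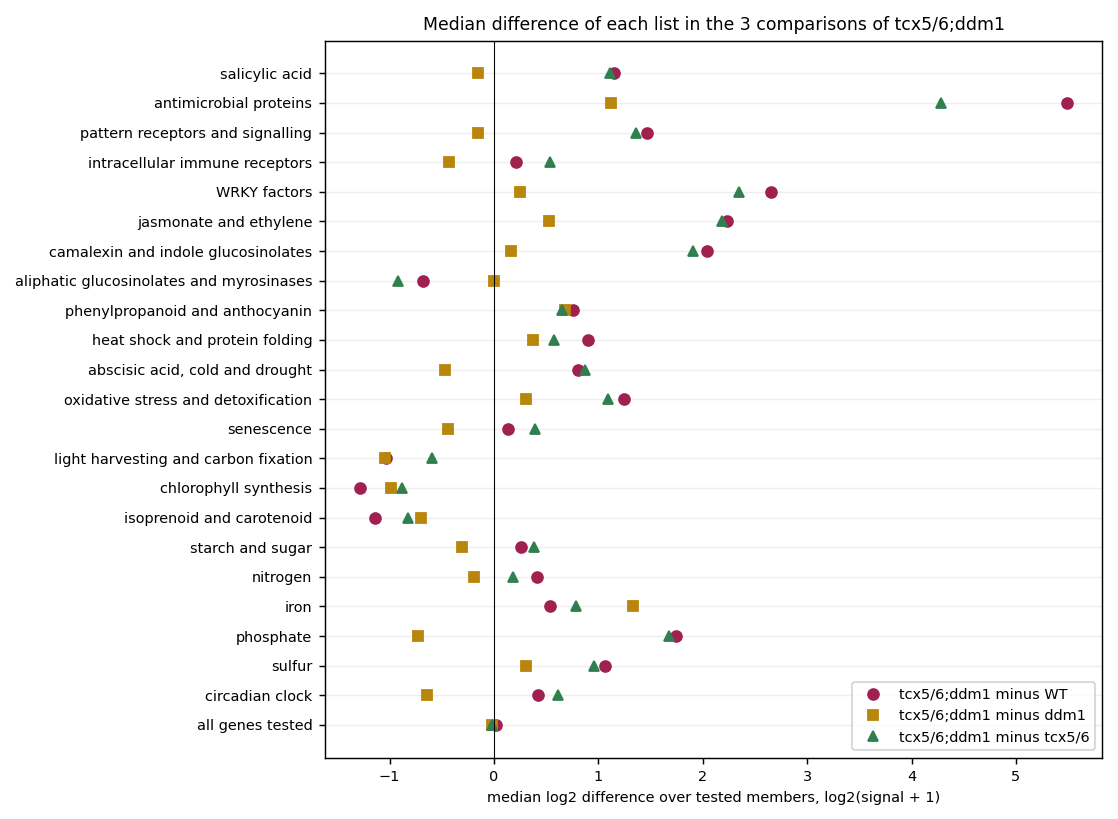
Median log2 difference over the tested members of each list between tcx5/6;ddm1 and WT (circles), ddm1 (squares) or tcx5/6 (triangles). The salicylic acid, pattern receptor, WRKY, camalexin and indole glucosinolate, and phosphate lists lie between -0.73 and 0.25 against ddm1. They lie at 1.11 or above against WT and tcx5/6. Antimicrobial proteins and jasmonate and ethylene genes lie above 0 in all 3. Against WT, intracellular receptors lie at 0.21 and aliphatic glucosinolate genes at -0.68. Iron has the highest median against ddm1 of the lists plotted, at 1.33 (the targeted and the methylation-silenced genes and the organ markers are not plotted).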

How the data were processed

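The deposited values are gene-level signal: per the submitters' processing notes, which name HISAT2, edgeR and TAIR10 without versions, the authors aligned reads and adjusted counts, and the values are fractional numbers that do not recover whole reads. They were therefore not tested as counts. All 8 libraries of the seedling table were fitted together in limma 3.58.1 (R 4.3.3) with limma-trend on log2(signal + 1), for the 25016 of 32833 genes that reached 1 in 2 or more libraries, and values under 1e-06 were read as 0. Adjusted p-values are Benjamini-Hochberg over all genes tested, and the procedure was tested on simulated data. Because the labels do not say that replicates were separate cultures, these p-values reflect no more than the spread between libraries.

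The members and gene lists were chosen with earlier results of these data known. Of 444 list members written, 433 had a symbol that matched the reference annotation of their gene ID. They made up 24 lists and 4 lists of organ markers. The other 11, among them NRG1.1, NRG1.2, IMA1, IMA2 and IMA3, were left out for lack of such a match. Their values were not read. Named genes were the 3 targeted genes, up to 2 members per list and direction with the largest called change, no overlap between groups and a higher group averaging at least 20, and the 12 largest rises and falls outside the lists averaging at least 200. Other members were named by role within a list. Alternatives were a median-of-ratios scaling, other filters and pseudocounts, a 2-fold minimum, a block for the replicate number, a fit restricted to the groups compared, and dropping libraries singly. Promoter windows are the 250 bases before the annotated gene start of 27443 protein-coding genes (TAIR10.1, RefSeq). Values were handled in Python 3.11.15 and plotted with matplotlib 3.10.9. The values of 1 gene counted among the jasmonate and ethylene genes are not reported here.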

Additional observations from a re-analysis of the deposited data

How the results depend on the processing

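Of 367 named and listed genes called between tcx5/6;ddm1 and WT, none changed sign under any alternative tried. The calls kept were 365 with median-of-ratios scaling, 366 without a filter, 365 of the 365 still tested with a minimum value of 20, 367 with a pseudocount of 0.1 and 355 with the compared groups alone. Without 1 library, 334 (WT replicate 2) to 353 (tcx5/6;ddm1 replicate 2) were kept. A 2-fold minimum kept 268. Over all genes it left 6650 calls against WT (3803 higher and 2847 lower), 3513 against ddm1 (1751 and 1762) and 5635 against tcx5/6 (3002 and 2633). With the compared groups alone, the calls against ddm1 went from 9832 to 6497 (2921 higher and 3576 lower), in a fit with 4 libraries in place of 8. Leaving out each library gave 10916 to 13305 calls against WT, 7793 to 9083 against ddm1 and 9530 to 12253 against tcx5/6.

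Replicate differences were at most weakly correlated between groups (correlations of -0.046 to 0.103). With 2 replicates per group this cannot tell whether same-numbered libraries were grown or handled together. With the replicate number as a block there were 13805 calls against WT, 9716 against ddm1 and 12804 against tcx5/6, and 363 of the 367 calls were kept. The depth sequenced is unknown, 2 libraries per group limit the precision, and what lies behind the zeros in 1 replicate alone cannot be told apart from genotype between WT and tcx5/6;ddm1.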
